A study of Mus musculus with 12 samples.

Results

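The genes described here are 10 members of the interleukin 6 (IL-6) cytokine family and its signaling circuit, out of 25562 genes counted, in cultured mouse proximal tubule (PT) cells. They were taken from a fixed list: the ligands Il6, Il11, Lif and Clcf1, the ligand-binding receptors Il6ra, Il11ra1, Lifr and Osmr, the shared receptor subunit gp130 (Il6st) and the feedback inhibitor Socs3. Each gene is represented by the transcript with its highest total count. Of the 10 genes, 9 passed the filter on low counts and were tested, and Il6 was at 0 in every library.

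The RNA-seq data came from conditionally immortalized PT cells of the Immorto mouse (H2ts6), which carry a temperature-sensitive viral oncogene and grow at 33 °C in the presence of interferon γ. Every group had been moved to 37 °C for 5 days before the experiment. There were 2 genotypes, H2ts6;Tgfbr2fl/fl (TβRII flox/flox) with an intact floxed type II TGF-β receptor, and H2ts6;Tgfbr2-/- (TβRII-/-), made from floxed cells with a Cre adenovirus in culture. Each was kept in normal culture media (untreated) or given H2O2 in serum free media over 24 h. The 4 groups held 3 libraries apiece. The dose was 200 mM by the labels and 200 μM in the methods of the study. Since 1 line stood for each genotype, a difference between lines and the loss of the receptor cannot be told apart, and H2O2 likewise cannot be told apart from serum withdrawal. The labels do not say that the libraries came from separate cultures, so p-values measure the spread between these libraries.

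IL-6 family cytokines share gp130 as the subunit that carries the signal into the cell. Each ligand first meets a receptor of its own: the IL-6 receptor for IL-6, the IL-11 receptor for IL-11, and LIFR for LIF and, together with the CNTF receptor, for CLCF1, while OSMR pairs with gp130 to bind oncostatin M. The complexes activate Janus kinases and the transcription factor STAT3, which switches on Socs3, whose product binds gp130 and shuts the signal off. In the kidney, injured tubules are a known source of LIF and IL-11.

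The promoters of the ligand genes and of Socs3 are shown because the transcription factors named with this family act there. RefSeq windows (GRCm38.p6, from 250 bases before to 50 bases after the transcription start) were found for 9 of the 10 members, 12 windows in all, and Clcf1 is not among them. The AP-1 motif TGACTCA, on either strand, was found in the windows of Il6, Il11 and Lif, and in 5.2% of all 32851 windows. The STAT motif TTCNNNGAA was found in the window of Socs3 and in 8.3% of all windows. The NF-kB motif GGGANTTTC was found in Il6 and in 1.11% of all windows, and the SMAD motif GTCTAGAC in no member and in 0.213% of all windows. The matches do not overlap each other. Each stretch below covers 61 bases upstream of the start of its window, on the strand of the gene, with the motif in capitals. For Il11 and Socs3 the stretch lies inside the gene coordinates given further below, so that start is inside the bounds of the gene. A match describes the letters only.
Il6, chr5:30012864-30012924, plus strand, AP-1: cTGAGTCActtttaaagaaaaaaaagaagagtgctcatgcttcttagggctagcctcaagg
Il6, chr5:30013044-30013104, plus strand, NF-kB: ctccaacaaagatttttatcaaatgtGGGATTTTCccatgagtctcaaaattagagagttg
Il11, chr7:4778206-4778266, minus strand, AP-1: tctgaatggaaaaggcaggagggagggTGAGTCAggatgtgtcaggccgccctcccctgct
Lif, chr11:4257318-4257378, plus strand, AP-1: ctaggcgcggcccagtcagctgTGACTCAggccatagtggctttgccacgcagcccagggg
Socs3, chr11:117969486-117969546, minus strand, STAT: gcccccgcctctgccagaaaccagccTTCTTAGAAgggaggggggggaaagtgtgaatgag

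The 12 libraries were close in depth, at 15878808 to 20866260 counts over the gene-level table. Tgfbr2 counts were 7032 to 8791 in untreated TβRII flox/flox cells, 6485 to 6895 in untreated TβRII-/- cells, 11960 to 13474 in TβRII flox/flox cells with H2O2 and 7156 to 9299 in TβRII-/- cells with H2O2. These counts cover the whole transcript and do not check the deleted part. Of 12 TGF-β target genes, 10 were lower and 1 higher in untreated TβRII-/- cells (edgeR, adjusted p under 0.05). Of all 12974 genes tested, 31.4% were lower and 33.3% higher. Pmepa1 was lower, at a log2 fold change of -3.63. The 1 higher was Tgfbi, with means of 3.91 against 41.4 normalized counts (counts brought to a common library size) untreated, and 4.25 against 62.2 with H2O2. Tgfbi passed the filter on low counts only through the TβRII-/- groups. Of 16 PT markers, 9 passed the filter, and Slc22a6 was at 0. Of these 9, 1 was higher (Pax8) and 7 were lower in untreated TβRII-/- cells, with a median log2 fold change of -0.68, and 2 were higher and 6 lower with H2O2, with a median of -1.10. Of 10 leukocyte markers 3 passed the filter (Cd14, Cd68 and Csf1r), and Adgre1, Cd3e and Itgax were at 0. Their levels are given as normalized counts. In untreated TβRII-/- cells 2 of these 3 were lower, Cd14 (438 to 163) and Csf1r (868 to 719), and 1 was higher, Cd68 (136 to 234). The summed level of 10 fibroblast markers, of which Lum and Thy1 were at 0 and 5 passed the filter, was 344 to 403 CPM (counts relative to the library total) in untreated TβRII flox/flox cells, 150 to 168 in untreated TβRII-/- cells, 156 to 177 and 43.7 to 52.3 with H2O2. In TβRII flox/flox cells most of that sum was Postn, and in TβRII-/- cells most of it was Acta2. Postn had group means of 6100, 197, 2743 and 88.3 normalized counts in the same order, and Acta2 had 469, 2496, 179 and 636. Of the 5 tested, Postn, Pdgfrb and Col1a1 were lower and Acta2 and Dcn higher in untreated TβRII-/- cells. The summed level of 5 podocyte markers (3 tested, Nphs1 at 0) was 171 to 181 CPM in untreated TβRII flox/flox cells and 62.6 to 66.8 in untreated TβRII-/- cells, and 161 to 193 against 73.9 to 76.9 with H2O2. The 3 tested podocyte markers did not move together. In untreated TβRII-/- cells Synpo (2900 to 367 normalized counts) and Wt1 (246 to 205) were lower, and Podxl (36.2 to 520) was higher. With H2O2 Synpo was again lower and Podxl again higher in TβRII-/- cells. Of 8 endothelial markers, Kdr alone was tested and Tie1 was at 0. Their summed level was 7.24 to 7.74 CPM in untreated TβRII flox/flox cells against 28.1 to 35.1 in untreated TβRII-/- cells. With H2O2 it was 1.47 to 1.57 against 2.64 to 4.29 CPM. These marker levels move with the genotype, as the levels of Il6st, Clcf1 and, in untreated cells, Il6ra do, and their part in the results below was not tested.

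The 9 detected genes spanned a wide range of levels. Values are normalized counts, that is counts scaled to a common library size of 17359318, and levels are compared between genes only after division by transcript length. Per kilobase (kb), gp130 (Il6st) had the highest level in each group: 2675 ± 293 (SD, n = 3) in untreated TβRII flox/flox cells, 1102 ± 19.5 in untreated TβRII-/- cells, 3323 ± 144 in TβRII flox/flox cells with H2O2 and 1071 ± 44.6 in TβRII-/- cells with H2O2. The ligand-binding receptors had much lower levels per kb, with Il6ra at 6.75 ± 0.671 and Lifr at 16.3 ± 1.36 in untreated TβRII flox/flox cells. Among the ligands, Clcf1 had 916 ± 83.3 normalized counts per kb in that group, Lif 188 ± 27.5 and Il11 4.06 ± 1.14. The order in untreated TβRII flox/flox cells was Il6st, Clcf1, Lif, Il11ra1, Socs3, Osmr, Lifr, Il6ra and Il11, and no 2 neighbours in it overlapped between libraries. The order changed in the untreated TβRII-/- cells, where Il6ra (22.0 ± 1.69 normalized counts per kb) stood above Lifr (13.8 ± 2.73), and where Il11ra1 and Socs3 overlapped. Socs3 stood above Il11ra1 in TβRII-/- cells with H2O2. Lengths are those of a later annotation than the one used for counting. The transcript that stands for Lifr had 3121 counts in all and the next one 1433, although in the annotation used here 34 of its 9655 bases lie in no other transcript, so the level of Lifr per kb and its order against Il6ra are uncertain.

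**Figure D1:**
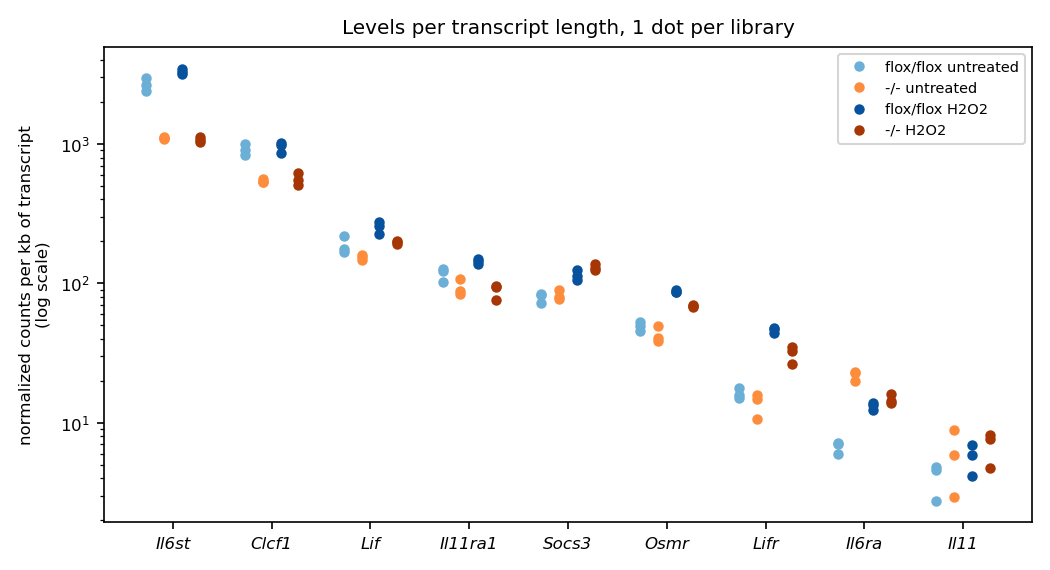
Normalized counts per kb of transcript (log axis) for the 9 detected genes, with 1 dot for each of the 12 libraries, colored by genotype and treatment. Il6st lies highest, between 1071 and 3323 in the group means, and Il11 lowest in the untreated TβRII flox/flox cells, at 4.06.

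Il6 itself (chr5:30013114-30019975, GRCm38.p6) was not detected. All 4 of its annotated transcripts had 0 counts in all 12 libraries, untreated or with H2O2. A count of 0 allows up to 3 counts per library, or 0.144 to 0.189 CPM, and this limit covers counting error only. Oncostatin M (Osm), the ligand of OSMR, was also at 0 in every library.

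Il11 (chr7:4772373-4782907), which encodes IL-11, was detected at a few counts per library. Its normalized counts were 9.47, 8.90 and 5.38 in untreated TβRII flox/flox cells, 11.5, 17.4 and 5.74 in untreated TβRII-/- cells, 8.12, 13.4 and 11.5 in TβRII flox/flox cells with H2O2, and 9.23, 14.9 and 15.9 in TβRII-/- cells with H2O2. The groups overlapped in every comparison. No difference passed the test, and the log2 difference between genotypes in untreated cells was 0.54 with a 95% interval of -0.40 to 1.48.

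Lif (chr11:4257568-4272514), encoding leukemia inhibitory factor, was lower in TβRII-/- cells and higher with H2O2 in both lines. In untreated TβRII flox/flox cells the 3 libraries had 833, 671 and 638 normalized counts, against 603, 555 and 589 in untreated TβRII-/- cells. With H2O2 they had 860, 1044 and 982 in TβRII flox/flox cells and 762, 723 and 757 in TβRII-/- cells. The groups did not overlap in any of these comparisons, although the lowest floxed library lay close to the highest null library in untreated cells. Of all 12974 genes tested, 65.3% likewise did not overlap between untreated genotypes, and 71% with H2O2. For H2O2 against untreated cells the shares were 47.4% in TβRII flox/flox and 52.1% in TβRII-/- cells. A lack of overlap, here and below, is thus common in these data. The edgeR quasi-likelihood test gave a log2 fold change of -0.30 ± 0.0849 (SE) between genotypes in untreated cells (adjusted p = 0.00302) and -0.36 ± 0.0804 with H2O2 (adjusted p = 0.00019). The untreated difference was lost without replicate 1 of the untreated TβRII flox/flox cells, at -0.17 (edgeR, adjusted p = 0.0698). H2O2 raised Lif by 0.43 on the log2 scale in TβRII flox/flox cells and by 0.36 in TβRII-/- cells (edgeR, adjusted p = 9.12e-05 and 0.000912).

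Clcf1 (chr19:4214238-4223505), encoding cardiotrophin-like cytokine factor 1, was lower in TβRII-/- cells and differed little with H2O2. Its normalized counts were 3568, 3210 and 2981 in untreated TβRII flox/flox cells against 1909, 1906 and 2006 in untreated TβRII-/- cells. With H2O2 they were 3060, 3488 and 3592 against 1966, 1811 and 2197. Every TβRII-/- library lay below every TβRII flox/flox library. The level was 1.68-fold lower in untreated TβRII-/- cells (log2 fold change -0.75 ± 0.0723, edgeR adjusted p = 1.11e-10) and 1.70-fold lower with H2O2 (-0.76 ± 0.0719, adjusted p = 5.01e-11). The H2O2 response was 0.05 in TβRII flox/flox cells (95% interval -0.09 to 0.20) and 0.04 in TβRII-/- cells (-0.11 to 0.18) on the log2 scale. The transcript that stands for Clcf1 retains an intron, and 311 of its 3550 bases are shared with the gene Gm45928 on the same strand. The protein-coding transcript gave -0.97 in untreated cells and -0.98 with H2O2.

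Il6st (chr13:112464070-112506860), the shared gp130 subunit, showed the largest genotype difference of the 9 tested members in H2O2-treated cells. Untreated TβRII flox/flox cells had 25821, 23075 and 20750 normalized counts and untreated TβRII-/- cells 9566, 9734 and 9396. With H2O2 they were 27658, 30147 and 28712 in TβRII flox/flox cells and 9257, 8922 and 9694 in TβRII-/- cells. Each of the 6 TβRII-/- libraries lay far below each of the 6 TβRII flox/flox libraries. The level was 2.43-fold lower in untreated TβRII-/- cells (log2 fold change -1.28 ± 0.0717, edgeR adjusted p = 1.43e-16) and 3.10-fold lower with H2O2 (-1.63 ± 0.0722, adjusted p = 2.49e-19). H2O2 raised Il6st by 0.31 on the log2 scale in TβRII flox/flox cells (edgeR, adjusted p = 0.000594), while in TβRII-/- cells the difference was -0.04 (95% interval -0.19 to 0.10, adjusted p = 0.672).

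Il6ra (chr3:89869324-89913196), which encodes the IL-6 binding receptor, went the other way and was the only member tested that was higher in untreated TβRII-/- cells past the threshold. Its normalized counts were 62.1, 61.2 and 51.6 in untreated TβRII flox/flox cells and 200, 173 and 197 in untreated TβRII-/- cells. With H2O2 they were 107, 121 and 116 in TβRII flox/flox cells and 119, 138 and 124 in TβRII-/- cells. The genotypes were far apart in untreated cells and overlapped with H2O2. The untreated level was 3.25-fold higher in TβRII-/- cells (log2 fold change 1.70 ± 0.140, edgeR adjusted p = 2.36e-12), and with H2O2 the difference was 0.16 (95% interval -0.10 to 0.42, adjusted p = 0.284). H2O2 raised Il6ra 1.96-fold in TβRII flox/flox cells (log2 fold change 0.97 ± 0.152, edgeR adjusted p = 5.66e-06) and lowered it 1.49-fold in TβRII-/- cells (-0.57 ± 0.119, adjusted p = 0.000277). The summed level of 8 distal nephron markers was 2.27 to 3.72 CPM in untreated TβRII flox/flox cells, 15.6 to 17.0 in untreated TβRII-/- cells, 3.06 to 3.70 in TβRII flox/flox cells with H2O2 and 4.25 to 5.38 in TβRII-/- cells with H2O2. It was higher in the untreated TβRII-/- cells and fell with H2O2 in that line, while treated and untreated TβRII flox/flox cells overlapped. Of these 8 only Scnn1a, an epithelial sodium channel subunit with means of 47.6, 272, 59.4 and 69.8 normalized counts in the same order, passed the filter, and Calb1, Aqp2 and Foxi1 were at 0. Umod, Slc12a1, Slc12a3 and Atp6v1b1 had 23, 11, 16 and 3 counts over all 12 libraries. The sum is thus mostly Scnn1a and does not show that distal nephron cells were present. The part of these markers in the Il6ra result was not tested, and in bulk RNA fewer cells of a type and less RNA per cell cannot be told apart.

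Il11ra1 (chr4:41760443-41769473), encoding the IL-11 receptor α chain, was lower in TβRII-/- cells, most clearly with H2O2. Untreated cells had 254, 261 and 213 normalized counts in the TβRII flox/flox line and 223, 182 and 172 in the TβRII-/- line, so that the genotypes overlapped. With H2O2 the values were 286, 302 and 311 against 156, 197 and 195, with no overlap. The log2 fold change between genotypes was -0.34 ± 0.116 in untreated cells (edgeR, adjusted p = 0.0114) and -0.71 ± 0.112 with H2O2 (adjusted p = 1.5e-06). The untreated difference was lost without replicate 2 of the untreated TβRII flox/flox cells (edgeR, adjusted p = 0.0542) or replicate 3 of the untreated TβRII-/- cells (adjusted p = 0.0736). H2O2 raised Il11ra1 by 0.30 in TβRII flox/flox cells (edgeR, adjusted p = 0.0271), a call that was lost without replicate 3 of the untreated cells (adjusted p = 0.145), replicate 2 of the treated cells (0.0646) or replicate 3 of the treated cells (0.0741). In TβRII-/- cells the difference was -0.07 (adjusted p = 0.678). The near-identical gene Il11ra2 was at 0 in all libraries, and reads that fit both copies leave the level of Il11ra1 uncertain.

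Lifr and Osmr, the receptors for LIF and oncostatin M, lie next to each other on chromosome 15 (Lifr chr15:7090610-7197489 and Osmr chr15:6813568-6874968) with 216 kb and 0 genes of the RefSeq table between them. Both rose with H2O2 in both lines. Lifr had 171, 146 and 154 normalized counts in untreated TβRII flox/flox cells and 462, 428 and 458 with H2O2, and 154, 104 and 143 in untreated TβRII-/- cells and 317, 257 and 340 with H2O2. Each treated library lay above each untreated library of its line. The rise was 2.86-fold in TβRII flox/flox cells (log2 fold change 1.51 ± 0.117, edgeR adjusted p = 4.52e-12) and 2.28-fold in TβRII-/- cells (1.19 ± 0.121, adjusted p = 2.82e-09). Osmr had 270, 250 and 293 normalized counts in untreated TβRII flox/flox cells and 479, 478 and 490.5 with H2O2. In the TβRII-/- line it had 225, 272 and 213 untreated and 373, 377 and 387 with H2O2. The treated libraries were again all above the untreated ones. Its rise was 1.78-fold in TβRII flox/flox cells (0.83 ± 0.0899, edgeR adjusted p = 7.7e-09) and 1.60-fold in TβRII-/- cells (0.68 ± 0.0912, adjusted p = 4.92e-07).

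With H2O2 both receptors were lower in TβRII-/- cells, Lifr by a log2 fold change of -0.57 ± 0.105 (edgeR, adjusted p = 1.8e-05) and Osmr of -0.35 ± 0.0845 (adjusted p = 0.000549), with no overlap between genotypes. In untreated cells the genotypes overlapped for both genes. The untreated log2 difference was -0.24 for Lifr (95% interval -0.52 to 0.04, edgeR adjusted p = 0.121) and -0.20 for Osmr (-0.39 to 0.00, adjusted p = 0.0755). Summed over all its transcripts, Lifr passed in untreated cells at -0.49 (edgeR, adjusted p = 0.00143), and it also passed without replicate 1 of the untreated TβRII-/- cells, at -0.35 (adjusted p = 0.0387). Osmr passed without replicate 2 of the untreated TβRII flox/flox cells (edgeR, adjusted p = 0.0356) or of the untreated TβRII-/- cells (adjusted p = 0.00977). The 23 or 24 tested genes nearest to each receptor had a median H2O2 response within 0.11 log2 units of that of all genes in both lines. Between genotypes these neighbours lay above the median of all genes, by 0.14 and 0.13 for Lifr and 0.10 and 0.10 for Osmr (untreated and with H2O2). The 473 tested genes of chromosome 15 had a median 0.35 and 0.38 above it. The part of this shift in the levels of Lifr and Osmr was not tested.

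Socs3 (chr11:117966079-117970336), the feedback inhibitor whose promoter stretch with the STAT motif is shown above, rose with H2O2 in both lines. Its normalized counts were 193, 221 and 224 in untreated TβRII flox/flox cells and 333, 302 and 280 with H2O2. They were 238, 213 and 207 in untreated TβRII-/- cells and 343, 332 and 367 with H2O2. Treated and untreated libraries did not overlap in either line, and the genotypes overlapped in both conditions. The rise was 1.44-fold in TβRII flox/flox cells (log2 fold change 0.52 ± 0.10, edgeR adjusted p = 9.57e-05) and 1.58-fold in TβRII-/- cells (0.66 ± 0.0955, adjusted p = 1.55e-06). Between genotypes the log2 difference was 0.04 in untreated cells (95% interval -0.17 to 0.26) and 0.18 with H2O2 (95% interval -0.0035 to 0.37, edgeR adjusted p = 0.0781).

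**Figure D2:**
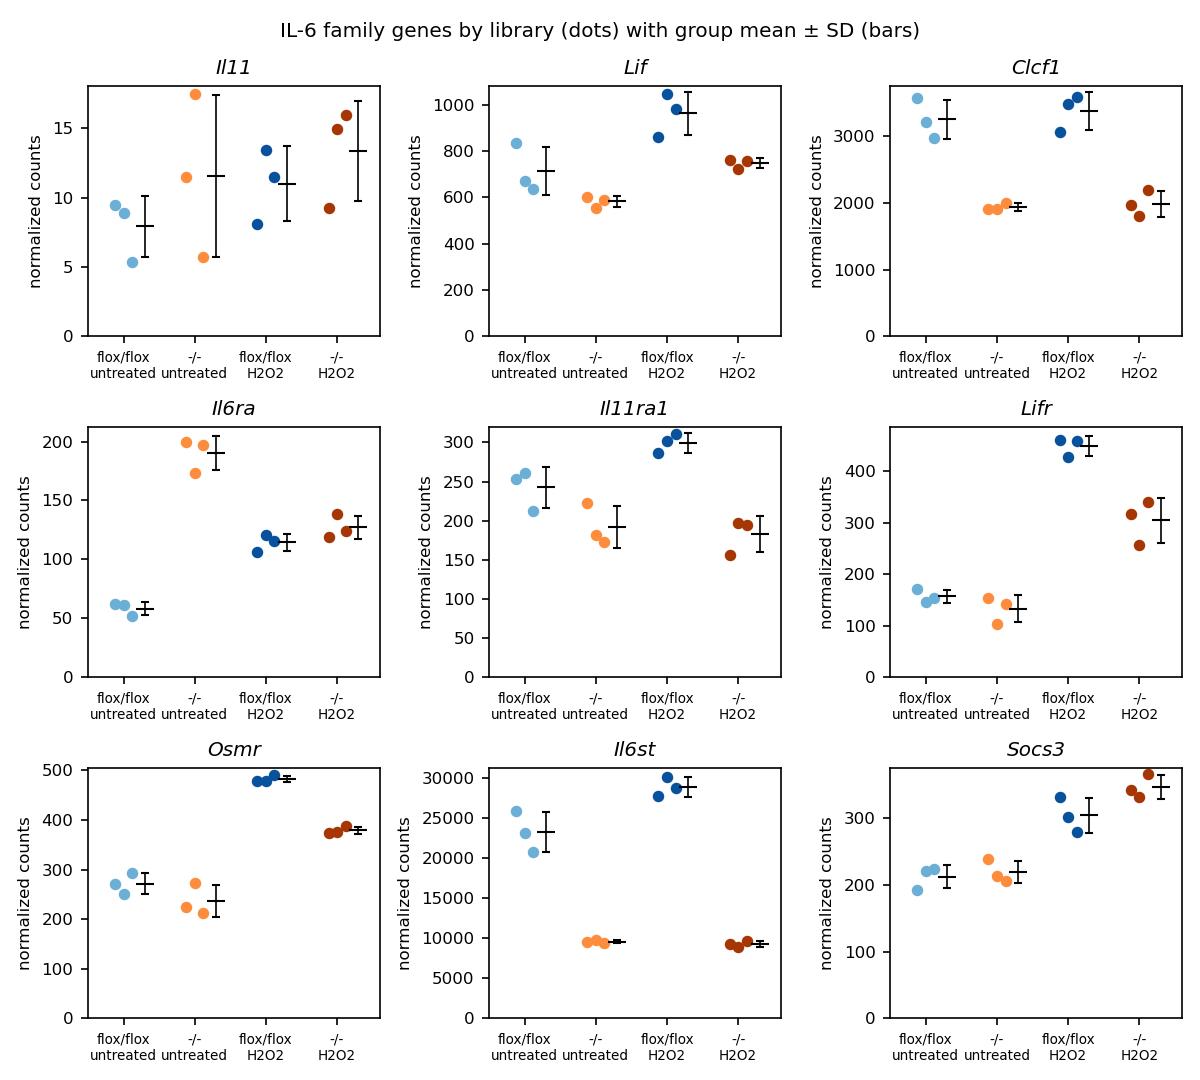
Normalized counts of the 9 detected family genes (linear axes from 0) in each of the 12 libraries, with the mean ± SD of each group of 3 beside the dots. All 6 TβRII-/- libraries lie below the TβRII flox/flox libraries for Clcf1 and Il6st, Il6ra is highest in untreated TβRII-/- cells, and Lifr, Osmr and Socs3 rise with H2O2 in both lines.

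Counted together, 5 of the 9 tested members differed between genotypes in untreated cells at an adjusted p under 0.05 (edgeR). Of these Il6ra was higher, and Lif, Clcf1, Il6st and Il11ra1 were lower. This compares with 64.7% of all 12974 genes tested (33.3% higher, 31.4% lower), so that the share of members called was not above that of all genes. With a fold change of at least 1.5, 3 members passed (1 higher and 2 lower), against 28% of all genes. With H2O2, 6 members were lower and 0 higher in TβRII-/- cells, against 66.4% of all genes called (35.1% higher, 31.3% lower). At a fold change of at least 1.5, 3 members were lower, against 30.7% of all genes. The total share was near the background, while the 6 members that passed were all lower. The members' median log2 fold change was -0.24 in untreated cells and -0.36 with H2O2, beside 0.01 and 0.02 over all genes. The genotypes did not overlap for 4 of the 9 members in untreated cells and 6 with H2O2, against 65.3% and 71% of all genes.

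H2O2 raised 7 of the 9 members and lowered 0 in TβRII flox/flox cells, against 41.6% of all genes called (21% higher, 20.6% lower). Of these, Il6ra, Lifr and Osmr passed with a fold change of at least 1.5, where 8.24% of all genes did. In TβRII-/- cells 4 members were raised (Lif, Lifr, Osmr and Socs3) and 1 was lowered (Il6ra), against 39.6% of all genes (20.5% higher, 19.1% lower). Lifr, Osmr and Socs3 passed with a fold change of at least 1.5 there, against 8.32% of all genes. The median log2 response of the members was 0.46 in TβRII flox/flox cells and 0.21 in TβRII-/- cells, beside 0.01 and 0.02 over all genes. Treated and untreated libraries did not overlap for 7 of the 9 members in TβRII flox/flox cells and 5 in TβRII-/- cells, against 47.4% and 52.1% of all genes. These comparisons share their untreated or treated libraries pairwise and are not independent.

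Whether the lines responded differently to H2O2 was tested by the interaction term. It was called for 2 of the 9 members, both with a lower response in TβRII-/- cells, against 10.2% of all genes (3.9% higher, 6.28% lower). With a fold of at least 1.5, only Il6ra passed, against 2.36% of all genes. For Il6ra, which rose in one line and fell in the other, the response differed by -1.54 ± 0.193 on the log2 scale (edgeR, adjusted p = 1.58e-06). For Il6st it differed by -0.36 ± 0.0999 (adjusted p = 0.0196). The Il6st call was lost without replicate 2 of the untreated TβRII-/- cells (edgeR, adjusted p = 0.0561) or replicate 1 or 2 of the H2O2-treated TβRII-/- cells (adjusted p = 0.0556 and 0.0724). The differences for Il11ra1 (-0.37, 95% interval -0.70 to -0.04, adjusted p = 0.148) and Lifr (-0.33, 95% interval -0.68 to 0.02, adjusted p = 0.248) did not pass, and those for Lif, Clcf1, Osmr and Socs3 were between -0.15 and 0.14.

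Other ligands and receptors of the family were mostly silent. Of 8 other ligand genes, only Cntf and Ctf1 passed the filter, and Osm and Il31 were at 0. Cntf, encoding ciliary neurotrophic factor, had 1427 ± 157 (SD, n = 3) normalized counts in untreated TβRII flox/flox cells, 663 ± 40.1 in untreated TβRII-/- cells, and 562 ± 49.5 and 493 ± 50.5 with H2O2. H2O2 lowered it in TβRII flox/flox cells, with a log2 fold change of -1.34, and less in TβRII-/- cells, at -0.43, a difference of 0.92 (edgeR, adjusted p = 3.27e-06). The Cntf gene lies directly downstream of Zfp91 on the same strand, and reads running on from Zfp91 were not separated. Ctf1, encoding cardiotrophin 1, was higher in TβRII-/- cells with H2O2 at 0.88. Of 8 other receptor genes, only Cntfr and Il12rb1 passed the filter, and both were higher in TβRII-/- cells in both conditions. Both passed the filter only through the TβRII-/- groups, so their shared direction followed from the filter. Il12rb1 had means of 3.67 and 3.47 normalized counts in TβRII flox/flox cells, untreated and with H2O2, against 12.1 and 12.3 in TβRII-/- cells. Cntfr, the receptor used by CNTF and CLCF1, had 4.21, 1.11 and 3.23 normalized counts in untreated TβRII flox/flox cells against 32.4, 51.3 and 55.5 in untreated TβRII-/- cells, a log2 fold change of 3.96 ± 0.488 (edgeR, adjusted p = 1.83e-08).

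The genes that carry the signal were all expressed, and they moved in both directions. Counts over this and the other lists stand beside the shares of all genes tested, which were 33.3% higher and 31.4% lower between untreated genotypes, 35.1% and 31.3% with H2O2, 21% and 20.6% for H2O2 in TβRII flox/flox cells, 20.5% and 19.1% in TβRII-/- cells, and 10.2% in either direction for the interaction. Nothing particular to a list is read from them. Of 11 JAK-STAT transducers tested, 2 were higher and 4 lower in untreated TβRII-/- cells (median -0.02 on the log2 scale). The kinases Jak3 and Jak2 were higher (0.68 and 0.63), and the adaptor Gab1 (-0.75) and Stat5b (-0.70) were lower. Stat3, the main effector of gp130, was lower as well at -0.47 (it was named for its role after its values were seen). With H2O2, 4 were higher and 4 lower between genotypes. H2O2 raised 5 and lowered 4 of the 11 in TβRII flox/flox cells, and raised 8 and lowered 1 in TβRII-/- cells, where Jak3 (0.47), Stat5a (0.37) and Stat3 (0.32) rose. The response differed between the lines for 3 of 11, Stat5b, Jak1 and Gab1.

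Among 14 feedback and receptor-shedding genes, 3 were higher and 7 lower in untreated TβRII-/- cells, with a median of -0.24. The phosphatase gene Ptpn6 was higher (2.45), and Socs2 (-1.51) and the shedding protease Adam10 (-0.61) were lower. With H2O2, 3 were higher and 6 lower between genotypes. H2O2 raised 2 and lowered 4 in TβRII flox/flox cells, where Socs2 fell by 1.30 on the log2 scale, and raised 1 and lowered 2 in TβRII-/- cells. The interaction was called for 1 of 14, Socs2.

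Of 25 STAT3 target genes, 19 were tested, 9 were higher and 7 lower in untreated TβRII-/- cells, and the median was 0.14. Lcn2, which encodes the tubular injury marker NGAL, rose furthest: it had 5.26, 12.2 and 5.38 normalized counts in untreated TβRII flox/flox cells and 115, 94.9 and 122 in untreated TβRII-/- cells, a log2 fold change of 3.85. Cyclin D1 (Ccnd1) was higher at 2.54, and Cebpd (-1.86) and Nnmt (-1.67) were lower. With H2O2, 9 were higher and 8 lower between genotypes. H2O2 raised 6 and lowered 7 in TβRII flox/flox cells (median -0.01), and raised 7 and lowered 8 in TβRII-/- cells (median -0.14). In both lines Ccnd1 fell, by 1.51 and 0.92, and Lcn2 rose, by 0.96 and 1.20. The response differed between the lines for 5 of 19, 2 in the higher and 3 in the lower direction, with Icam1 at -0.65 and Ccnd1 at 0.59.

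Of 18 genes of the NF-kB pathway, an inducer of Il6, 14 were tested. Between genotypes 2 were higher and 9 lower in untreated TβRII-/- cells (median -0.41), and 2 were higher and 8 lower with H2O2. The chemokine gene Ccl2 (-1.43) and Nfkbiz (-1.12), a coactivator of Il6, were lower, and the chemokine gene Cxcl1 (1.42) was higher. H2O2 raised 4 and lowered 6 in TβRII flox/flox cells, and raised 7 and lowered 4 in TβRII-/- cells. The interaction was called for Cxcl1 and Rela, 2 of 14. The cytokine genes Tnf and Il1b were, like Il6, at 0 in all libraries.

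The 10 genes for proteins that control the decay of cytokine mRNA were all tested. In untreated TβRII-/- cells 4 were lower and 0 higher (median -0.07), with Zc3h12a at -0.50 and Zfp36l2 at -0.45, and with H2O2 3 were higher and 2 lower. H2O2 raised 2 and lowered 3 in TβRII flox/flox cells, and raised 4 and lowered 2 in TβRII-/- cells. Arid5a, whose product stabilizes Il6 mRNA, rose in both lines, by 1.41 and 1.21 on the log2 scale. Only Zfp36l1 had a different response between the lines (0.55). The 12 TGF-β target genes had a median of -1.54 between genotypes in untreated cells and -1.51 with H2O2, with 1 higher (Tgfbi) and 10 lower in each. H2O2 raised 1 and lowered 7 of them in TβRII flox/flox cells (median -0.32) and raised 2 and lowered 4 in TβRII-/- cells (median -0.18), and the interaction was called for 1 in the higher and 2 in the lower direction.

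**Figure D3:**
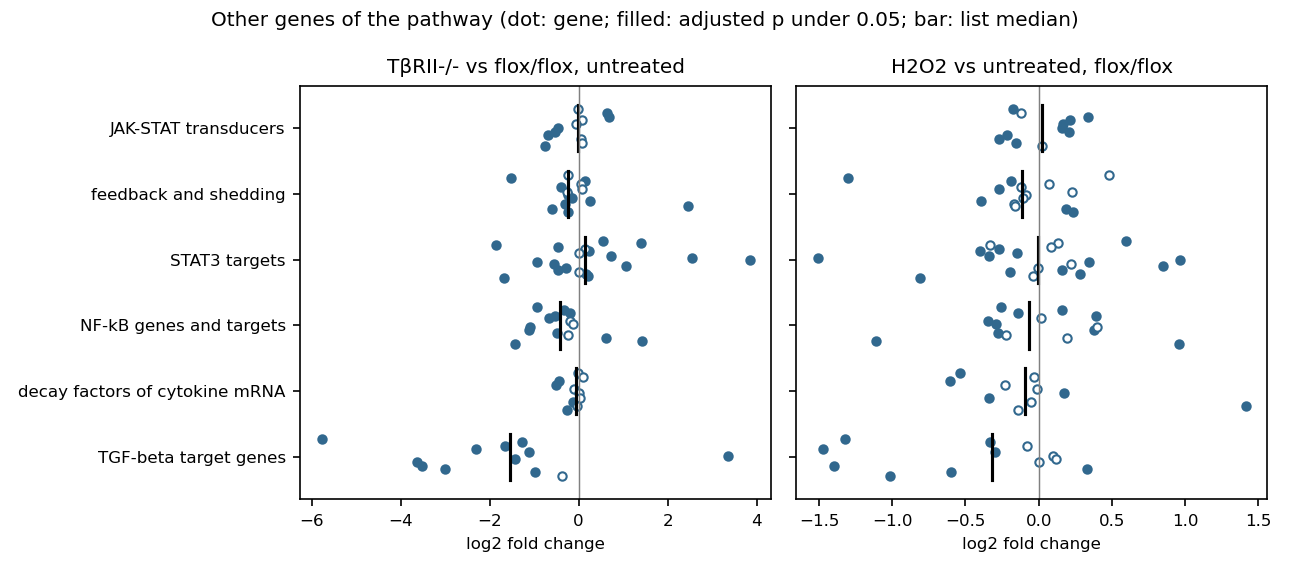
Log2 fold changes of the tested genes of 6 lists, TβRII-/- against TβRII flox/flox in untreated cells (left) and H2O2 against untreated in TβRII flox/flox cells (right), with filled dots at an adjusted p under 0.05 and a bar at each list's median. In the left panel the TGF-β targets have a median of -1.54, with Tgfbi to the right of 0. The NF-kB genes there have a median of -0.41, and the STAT3 targets spread to both sides around 0.14.

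Across the 12 libraries, the protein-coding genes whose log2 levels ran most closely with each ligand were found by Pearson correlation over 11042 genes. For Lif they were Slc39a9, Tet3 and Taok2 (r = 0.98, 0.98 and 0.98), for Clcf1 Acin1, Khdc4 and Gm20521 (0.99, 0.99 and 0.99), and for Il11 Zdhhc6, Saysd1 and Ubxn8 (0.88, 0.88 and 0.84). The libraries fall into 4 groups, so these values largely describe shared group means.

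Some readings overlap other genes. On the opposite strand, Il6ra shares 242 bases with Gm42809, Il6st 181 with 6720470G18Rik, Lifr 354 with Gm62219, Il11ra1 13 with Ccl27a and Socs3 144 and 160 with Gm57366 and Gm73339. Whether the counting used strand is not given in the sources used here, so reads from these partners may be included.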

How the data were processed

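Per the labels and the study's methods, the authors sequenced TruSeq mRNA libraries, trimmed the reads (fastp) and mapped them to the GRCm38.p6 genome (STAR), and featureCounts assigned them to GENCODE M23 models. The authors deposited raw counts for 106332 Ensembl transcripts per library, with no normalization and with reads counted on several transcripts of a gene (51387170 to 69231661 per library). GENCODE M39 gave symbols for 104870 transcripts; the 1462 others, 1.20 to 1.26% of counts, were left out. For each of 25562 genes the transcript with the highest total was used.

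All 12 libraries were fitted with edgeR 4.0.16 (R 4.3.3; TMM, filterByExpr, quasi-likelihood test, 1 mean per group), with Benjamini-Hochberg adjustment over 12974 genes and calls at an adjusted p under 0.05. SE is the absolute log2 fold change over the square root of F, and 95% intervals are not adjusted. DESeq2 1.42.0 was an alternative, with size factors, filters, the transcript used, a replicate block and leaving out each library. In data simulated for untreated genotypes, edgeR recovered 193 of 200 genes changed 2-fold and called 9 unchanged ones among 12757, and for the interaction it recovered 171 of 200 and called 8. The simulation changed far fewer genes than the 64.7% called here between untreated genotypes, so its rates may not hold for these data. Replicates differed by more than sampling noise (chi-square per gene 3.12 to 10.1).

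The members and lists were chosen with earlier results of these data known. All members were named. From each list up to 4 genes per comparison were eligible, those with the largest absolute log2 fold change among genes called with a mean of at least 10 normalized counts. The 3 genes most alike each ligand needed a mean of at least 50. Protein motifs were not searched.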

Additional observations from a re-analysis of the deposited data

Results flagged for a closer look

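The H2O2 response of 2 receptor genes differed between the lines by the interaction term of the edgeR fit. For Il6ra the difference, TβRII-/- minus TβRII flox/flox, was -1.54 on the log2 scale (edgeR, adjusted p = 1.58e-06). Group means went from 58.3 to 114 normalized counts in TβRII flox/flox cells and from 190 to 127 in TβRII-/- cells. Treated and untreated libraries did not overlap in either line, as was so for 47.4% (TβRII flox/flox) and 52.1% (TβRII-/-) of all genes tested. For Il6st the difference was -0.36 (edgeR, adjusted p = 0.0196), with means of 23216 and 28839 in TβRII flox/flox cells and 9565 and 9291 in TβRII-/- cells. The Il6st call was lost in edgeR fits without replicate 2 of the untreated TβRII-/- cells (adjusted p = 0.0561), without replicate 1 of the H2O2-treated TβRII-/- cells (0.0556) and without their replicate 2 (0.0724).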

How the results depend on the processing

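Over the settings tried, 643 of 667 values for single members kept their direction and side of the threshold, 9 lost their call, 4 gained one and 11 changed sign. Normalization by DESeq2 size factors, DESeq2 itself, either filter, the fit of only the groups compared and the coding transcript with the highest total (chosen after seeing the data) changed no count of members called. Summing over transcripts added Lifr in untreated cells (6 members called). Leaving out 1 library in turn, the members called ranged from 4 to 6 between untreated genotypes, from 6 to 7 for H2O2 in TβRII flox/flox cells and from 1 to 2 for the interaction, and the genes called for the interaction from 831 to 1679, beside 1321 with all libraries; 831 and 878 were reached without replicate 1 and replicate 2 of the H2O2-treated TβRII-/- cells. The sign changes were all of values that had not passed, in fits that left out 1 library, whose log2 ranges were -0.027 to 0.086 for Socs3 between untreated genotypes, -0.00035 to 0.14 and -0.040 to 0.10 for Clcf1 with H2O2 in TβRII flox/flox and TβRII-/- cells, -0.12 to 0.047 for Clcf1 in the interaction, -0.14 to 0.047 for Il11ra1 with H2O2 in TβRII-/- cells, and -0.12 to 0.64 and -0.58 to 0.18 for Il11 there and in the interaction. The cause was not tested. The replicate numbers do not pair the libraries: 18 same-number pairs correlated between -0.10 and 0.06, and 2 of 12 libraries correlated best with their own number. With the replicate number as a block, 5, 6, 7, 5 and 2 members were called in the 5 comparisons, the same numbers as without it, and 8289 and 1201 genes between untreated genotypes and for the interaction. Il6 had 0 counts, so its limit is set by depth.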
